A study of Mus musculus with 8 samples.

Results

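The genes described here are those of mitosis and the spindle: the kinases that start cell division, the checkpoint that delays it, the kinetochores and motors that move chromosomes, and the factors that separate the daughter cells. The list held 46 genes. They were taken by name and by no rule on measured values, but with earlier results of these data known. Of these, 45 were matched to a probe set that the array's annotation gives to 1 gene, among 18193 genes measured. Where a gene had several such probe sets, as 30 of the 45 did, the brightest over all arrays was used. Ccnb1, the gene of cyclin B1, was matched to no such probe set, so its expression was not analysed here. Its promoter window is counted with the others below.

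RNA came from mouse embryonic fibroblasts, a culture grown from embryos, of C57BL/6 mice at passage 13. The cells were either control cells, titled WT, or Stat5a/b-null cells, which lack the transcription factors STAT5A and STAT5B that growth hormone (GH) activates. Every culture was starved for 5 hours and then received GH at 1 ug/ml, or none, for 2 hours, so that all 4 groups share the starvation and no group shows growing, fed cells. Each group held 2 arrays, numbered 2 and 3. Replicates are called biological in the labels, with no word on whether embryos or cultures were separate, and the p-values therefore reflect only the spread between these arrays, which may be technical. The series title says that STAT5 limits proliferation by way of the inhibitor genes Cdkn2b and Cdkn1a, and the comparison of genotypes addresses how the genes of division differ where STAT5 is absent.

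Cell division is driven by the kinase CDK1 with cyclins A and B, which the CDC25 phosphatases switch on and which Polo, Aurora and NEK kinases assist. The spindle checkpoint delays the separation of chromosomes until each kinetochore is attached, and the anaphase-promoting complex then marks securin and cyclin B for destruction. Most genes of this program are transcribed late in the cycle and silenced in resting cells, through promoter elements called the cell cycle genes homology region (CHR), bound by the MuvB complexes, and CCAAT boxes, bound by NF-Y. A culture with a larger share of dividing cells therefore holds more of these transcripts, and in bulk RNA more dividing cells and more RNA per cell cannot be told apart.

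Promoter stretches of 8 of the genes are printed first because the genes share these elements while their expression differed widely between the genotypes. Each runs from 120 bases before to 30 bases after the annotated start, 5′ to 3′ on the gene's strand, from RefSeq with the mouse build GRCm38.p6. Capitals mark the letters TTTGAA or TTCGAA, in either orientation, for the CHR, and CCAAT, or ATTGG on the other strand, for the NF-Y box. The 8 were chosen after the values were seen, as the 4 genes with the largest increase in null cells without GH and the 4 with a difference nearest 0, among the genes whose printed stretch holds both elements.
Cdc25b, chr2:131186828-131186977, plus strand: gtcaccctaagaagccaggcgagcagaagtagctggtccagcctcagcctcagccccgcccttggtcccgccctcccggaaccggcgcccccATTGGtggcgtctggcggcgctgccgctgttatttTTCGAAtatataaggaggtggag
Cenpa, chr5:30666766-30666915, plus strand: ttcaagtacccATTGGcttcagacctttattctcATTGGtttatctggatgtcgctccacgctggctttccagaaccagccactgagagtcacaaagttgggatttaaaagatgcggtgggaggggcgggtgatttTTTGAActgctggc
Ect2, chr3:27153825-27153974, minus strand: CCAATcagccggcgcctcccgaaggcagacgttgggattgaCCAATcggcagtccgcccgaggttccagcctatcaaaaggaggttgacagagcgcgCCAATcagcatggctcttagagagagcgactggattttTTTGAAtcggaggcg
Racgap1, chr15:99651627-99651776, minus strand: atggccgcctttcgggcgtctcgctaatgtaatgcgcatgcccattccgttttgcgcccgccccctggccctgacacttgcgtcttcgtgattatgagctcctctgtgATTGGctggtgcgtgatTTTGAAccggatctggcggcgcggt
Cenpf, chr1:189688057-189688206, minus strand: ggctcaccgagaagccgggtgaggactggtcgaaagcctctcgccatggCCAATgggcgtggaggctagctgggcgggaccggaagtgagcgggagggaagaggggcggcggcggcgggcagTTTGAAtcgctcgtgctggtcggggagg
Hmmr, chr11:40733408-40733557, minus strand: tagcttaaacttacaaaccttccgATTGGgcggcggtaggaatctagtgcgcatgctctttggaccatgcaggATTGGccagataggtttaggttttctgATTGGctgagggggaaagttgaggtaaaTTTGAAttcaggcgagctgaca
Ccnf, chr17:24251380-24251529, minus strand: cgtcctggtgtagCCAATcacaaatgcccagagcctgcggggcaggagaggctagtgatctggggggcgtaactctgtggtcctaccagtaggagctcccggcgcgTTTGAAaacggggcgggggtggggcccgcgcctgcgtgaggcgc
Prc1, chr7:80294331-80294480, plus strand: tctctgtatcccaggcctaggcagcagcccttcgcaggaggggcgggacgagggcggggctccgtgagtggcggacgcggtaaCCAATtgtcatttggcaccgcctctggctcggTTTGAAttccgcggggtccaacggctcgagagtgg
The first 4 of these genes were 2.55-fold to 4.46-fold higher in null cells without GH, and the last 4, Cenpf, Hmmr, Ccnf and Prc1, differed by at most 0.19 on the log2 scale, with no call. In all 8 stretches a CHR match began between 14 bases before and 17 bases after the start. Cenpa held 2 CCAAT matches upstream, and Ect2 and Hmmr held 3 each. The 8 were chosen for holding both elements, so their presence here is no finding.

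The same letters were counted over the RefSeq windows from 250 bases before to 50 bases after each start. A window was found for 39 of the 46 genes, and Incenp, Foxm1, Aurkb, Cdc25c, Tpx2, Kif20a and Ccna2 had none in the table. A CHR match lay in the windows of 30 of the 39 genes (76.9%), against 21.7% of the 27025 genes with a window. CCAAT letters lay in 30 (76.9%), against 41.1% of all genes, and at least 2 CCAAT matches lay in 20 (51.3%), against 13.3%. Both elements lay in 27 (69.2%), against 8.61%. These shares describe letters and not sites that a factor was shown to bind.

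The positions were also alike. Of 44 CHR matches in the 42 windows of these genes, 30 began between 50 bases before and 45 bases after the start, a range chosen after the positions were seen. Windows of Bub3, Ect2 and Prc1 overlap, and a site in both windows of a gene was counted in each. The counts of matches and windows here are therefore not all of distinct sites. At least 1 CHR match in that range was held by 27 genes (69.2%), against 6.12% of all genes. The 74 CCAAT matches had a median position of -69.5, counted in bases from the start. In 27 windows a CCAAT match lay upstream of such a CHR match, at a median distance of 34 bases (range 9 to 153). No match of either kind was found in the windows of Nusap1, Plk4, Pttg1, Mad2l1, Nuf2 and Birc5, of which Nusap1, Plk4 and Pttg1 were more than 2-fold higher in null cells without GH.

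The share with both elements was 65.5% of the 29 genes called higher in null cells without GH (19 genes) and 88.9% of the 9 not called or lower (8 genes). The median log2 difference between genotypes without GH was 0.74 over the 27 genes with both elements and 0.71 over the 11 measured genes without both. Among related gene lists, both elements lay in 40.7% of 27 other spindle and cytokinesis genes, 31.2% of 16 cohesin and condensin genes, 31.0% of 29 other kinetochore genes and 6.25% of 16 genes of the anaphase-promoting complex.

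**Figure D1:**
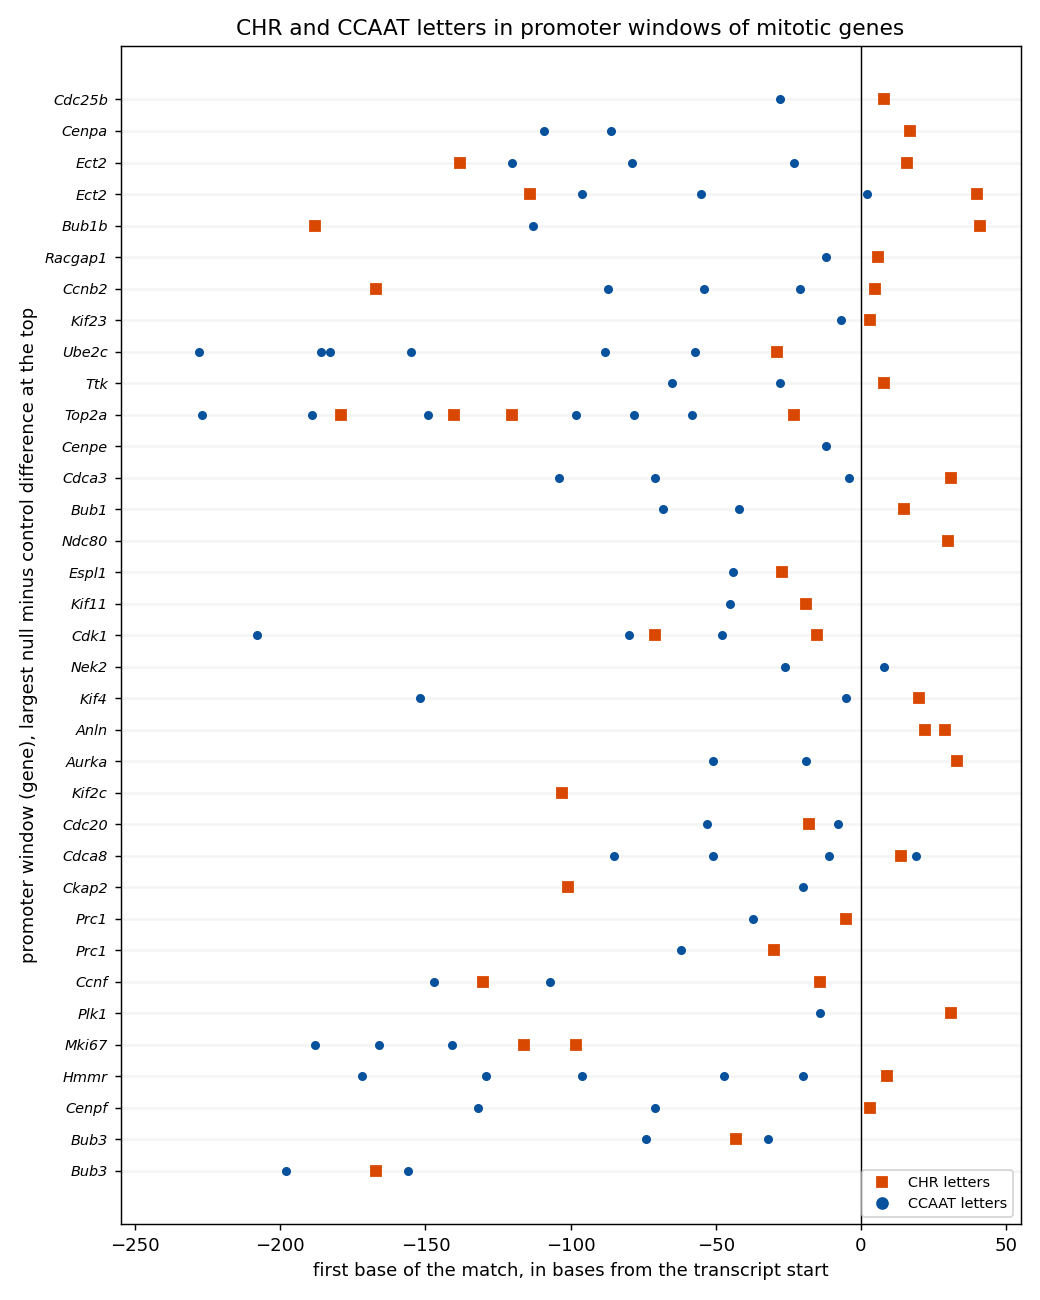
The plot gives the first base of each CHR match (squares) and each CCAAT match (circles), in bases from the annotated start. Each row is 1 promoter window that holds a match, of a gene measured on the arrays. Rows are ordered by the log2 difference between null and control cells without GH. Overlapping windows of Bub3, Ect2 and Prc1 repeat the same sites. The CHR matches crowd around the start, 30 of 44 between -50 and 45, at the top of the plot as well as at the bottom.

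Most of the genes were higher in Stat5a/b-null cells. Without GH, 35 of the 45 were called higher (limma, Benjamini-Hochberg adjusted p below 0.05 over all 18193 genes) and 2 lower, while 8 were not called. Among all genes 24.8% were called higher and 22.7% lower. At least 2-fold higher and called were 13 of the 45, against 5.56% of all genes. The median log2 difference was 0.71 (range -0.69 to 2.16), against 0.03 over all genes. In 40 of the 45 genes both null arrays lay above both control arrays, in 2 both lay below, and in 3 the groups overlapped. This order of arrays was not counted over all genes, so these counts describe the arrays and have no share to stand beside.

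With GH, 30 of the 45 genes were called higher and 2 lower, against 22.2% and 23.1% of all genes, and 9 were called at least 2-fold higher, against 4.84%. The median log2 difference was 0.54, against -0.02 over all genes. All 30 were among the 35 called without GH, and the 2 lower genes were Bub3 and Incenp in both states. Tpx2, Cdca8, Nuf2, Kif2c and Cdc20 were called higher only in the comparison without GH, although none of the 5 had a called interaction. The comparisons in the 2 GH states use different arrays.

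**Figure D2:**
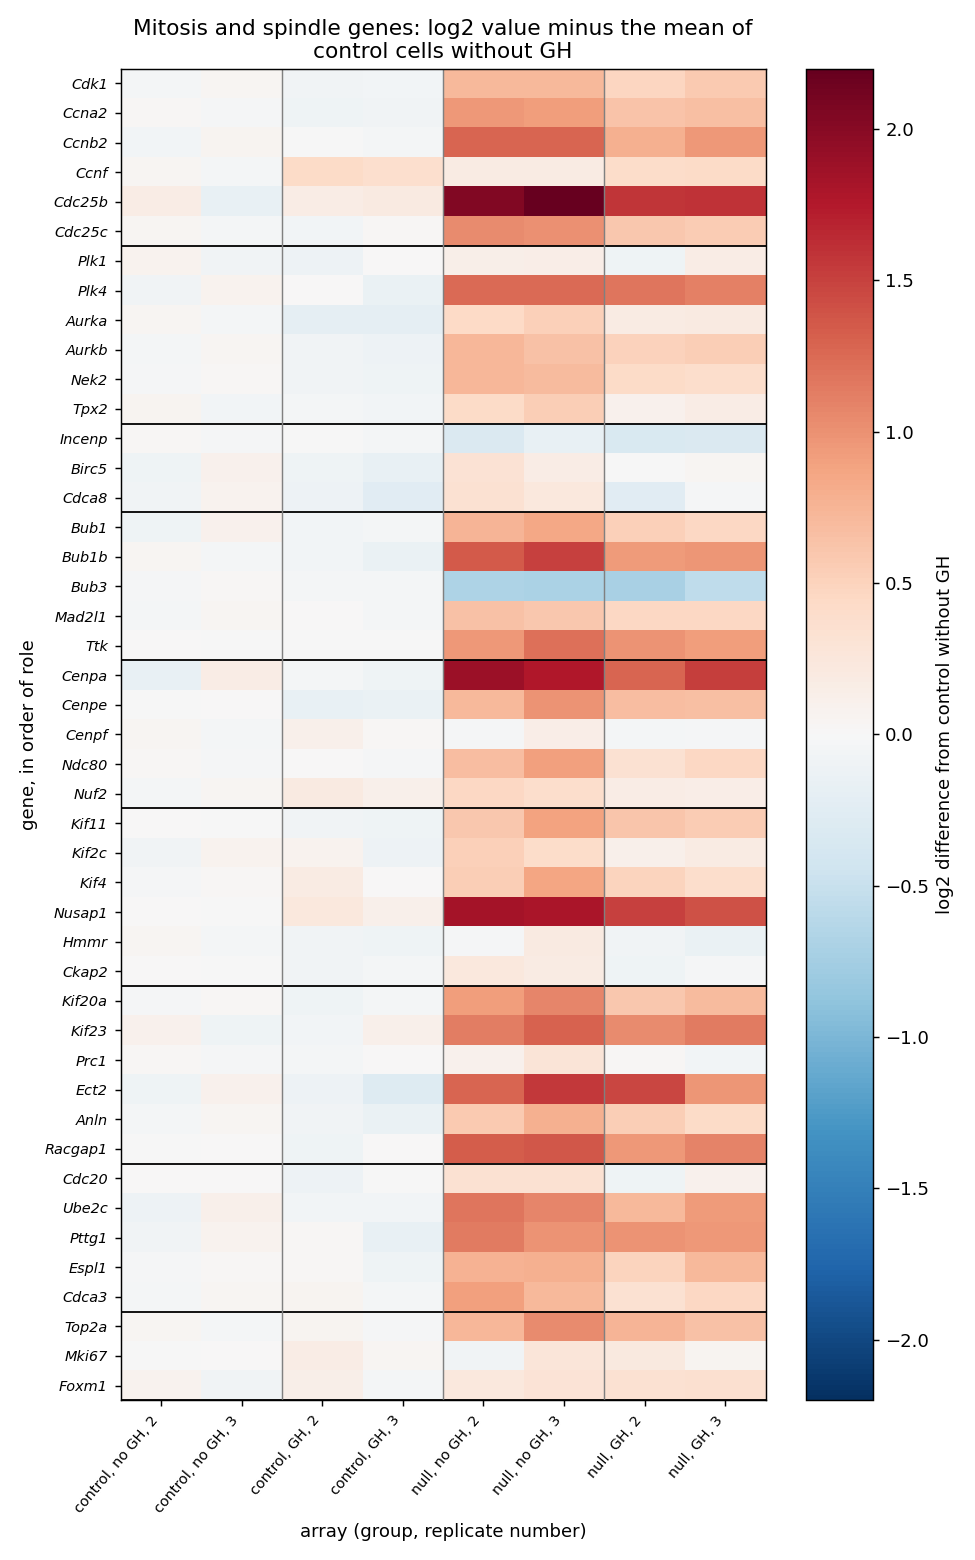
The colours give, for each of the 45 genes (rows, in blocks by role) and each of the 8 arrays (columns), the log2 value minus the gene's mean in control cells without GH. The median over the genes was -0.05 and -0.04 on the control arrays with GH, 0.71 and 0.78 on the null arrays without GH, and 0.48 and 0.45 on the null arrays with GH.

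Some facts of the whole series stand beside every genotype difference. Cdkn1a, which encodes the CDK inhibitor p21, was 18.9-fold lower in null cells without GH (log2 difference -4.24 ± 0.10, SE; limma adjusted p = 9.77e-12). In both null groups Stat5a was below 6.097, the first quartile of the values of all genes, and Stat5b fell by 0.69 on the log2 scale without GH (limma adjusted p = 3.33e-05). Of 10 macrophage and leukocyte markers, 10 were called lower in null cells in either GH state. Their mean log2 value per array ranged from 9.84 to 10.03 in control cells and from 6.48 to 6.65 in null cells, and Ptprc, Aif1 and Itgam lay below the first quartile in null cells without GH. The 12 fibroblast markers averaged 12.6 to 12.7 in control and 13.39 to 13.5 in null cells. Of these 12, 4 were called higher and 2 lower in either GH state, with differences from -0.97 to 4.32 without GH, while Col1a1 (-0.08) and Vim (-0.07) were not called. The 5 epithelial markers averaged 7.27 to 7.4 in control and 6.83 to 7.04 in null cells, with 1 called lower in either state (-2.36 without and -2.48 with GH) and 1 called higher without GH. The 5 endothelial markers averaged 5.92 to 6.14 over both genotypes, with 1 called lower in either state and 1 called higher with GH. All these marker counts stand beside 24.8% higher and 22.7% lower of all genes without GH, and 22.2% and 23.1% with GH. Pecam1, Tek, Tie1 and Cdh1 were below the first quartile in every group. The part of the leukocyte markers in the results on mitotic genes was not tested. All 45 mitotic genes lay above the first quartile in each group mean.

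Among CDK1, the cyclins and the CDC25 phosphatases, 5 of the 6 genes measured were called higher in either GH state, all but cyclin F, with a median log2 difference of 0.98 without and 0.66 with GH. Cdc25b encodes a phosphatase that removes the inhibitory phosphates from CDK1. Its log2 values were 8.16 and 7.85 in control cells, 8.16 and 8.19 in control cells with GH, 10.05 and 10.28 in null cells, and 9.58 and 9.60 in null cells with GH. All 4 null arrays lay above all 4 control arrays, and within null cells both arrays with GH lay below both without. The genotype difference was 2.16 ± 0.11 without GH (SE, 2 arrays per group; 4.46-fold; limma adjusted p = 1.33e-08) and 1.41 ± 0.11 with GH (2.66-fold; limma adjusted p = 6.15e-07), the largest increase of the 45 without GH.

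Ccnb2, the gene of cyclin B2, measured 10.17 and 10.29 in control cells, 10.23 and 10.19 with GH, 11.52 and 11.51 in null cells, and 11.02 and 11.19 in null cells with GH. Its null arrays lay above its control arrays in both states, by 1.28 ± 0.09 without GH (2.43-fold; limma adjusted p = 2.27e-07) and 0.89 ± 0.09 with GH (limma adjusted p = 6.03e-06). Cdc25c, a second phosphatase of CDK1, measured 7.41 and 7.34 in control and 8.41 and 8.38 in null cells without GH, and 7.32 and 7.41 against 7.97 and 7.94 with GH. The groups did not overlap, with differences of 1.02 ± 0.09 (2.03-fold; limma adjusted p = 8.57e-07) and 0.59 ± 0.09 (limma adjusted p = 1.00e-04).

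Cdk1 itself, the kinase, measured 11.002 and 11.08 in control and 11.76 and 11.76 in null cells without GH, and 10.97 and 10.99 against 11.52 and 11.62 with GH. It was higher by 0.71 ± 0.09 (limma adjusted p = 1.94e-05) and 0.59 ± 0.09 (limma adjusted p = 0.000103). Ccna2, the gene of cyclin A2, which acts from S phase into early mitosis, was higher by 0.93 ± 0.08 and 0.73 ± 0.08 in the same comparisons, both called. Ccnf, which encodes cyclin F, a substrate receptor of a ubiquitin ligase and no activator of CDK1, measured 8.72 and 8.64 in control against 8.86 and 8.86 in null cells without GH, and 9.10 and 9.06 against 9.08 and 9.10 with GH. Its difference of 0.18 ± 0.08 was not called without GH (limma adjusted p = 0.0951), and with GH its arrays overlapped (0.01 ± 0.08).

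The group of Polo, Aurora and NEK kinases held 6 genes, with the partner TPX2 counted among them. Of these 6, 5 were called higher without GH and 4 with GH. Plk4, the kinase that starts the duplication of centrioles, measured 9.05 and 9.21 in control and 10.38 and 10.38 in null cells without GH, and 9.14 and 8.98 against 10.31 and 10.23 with GH. The genotypes were apart on every array, by 1.25 ± 0.10 (2.38-fold; limma adjusted p = 3.37e-07) and 1.21 ± 0.10 (2.32-fold; limma adjusted p = 4.56e-07). Plk1, the Polo kinase of mitotic entry and spindle assembly, measured 9.73 and 9.57 against 9.79 and 9.80 without GH, and 9.54 and 9.67 against 9.55 and 9.81 with GH. Its null arrays lay just above the controls without GH and overlapped them with GH. The difference of 0.14 ± 0.11 was not called (limma adjusted p = 0.306), with a 95% interval from -0.09 to 0.38.

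Nek2, a centrosome kinase, was higher by 0.71 ± 0.08 without and 0.50 ± 0.08 with GH, and both were called. Aurkb, the kinase of the chromosomal passenger complex, was higher by 0.69 ± 0.09 and 0.62 ± 0.09, and Aurka, the centrosome and spindle kinase, by 0.48 ± 0.09 and 0.40 ± 0.09, all called. Tpx2, which recruits and activates Aurora A on the spindle, was called at 0.48 ± 0.09 without GH and not at 0.19 ± 0.09 with GH (limma adjusted p = 0.118). Of 4 probe sets of Nek2 the dimmest, which lies below the first quartile, was called lower with GH in null cells than in controls (-0.49), against the brightest one.

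Of the 3 partners of Aurora B in the passenger complex, 1 was called higher, 1 lower and 1 not called without GH, and with GH 0 were called higher and 1 lower. Incenp, its scaffold, measured 10.08 and 10.03 in control and 9.74 and 9.89 in null cells without GH, and 10.04 and 10.02 against 9.72 and 9.73 with GH. Both null arrays lay below both control arrays, by -0.24 ± 0.09 (limma adjusted p = 0.0424) and -0.31 ± 0.09 (limma adjusted p = 0.0125). This call rests on 1 of 5 probe sets, since the second brightest of Incenp gave 0.15 without and 0.17 with GH and the third was called higher without GH (0.32). The call without GH was also lost without any 1 of 7 arrays (differences -0.27 to -0.16, limma adjusted p 0.0548 to 0.242), the exception being the null array without GH numbered 3. With GH it was lost without either control array or without null array 2 (limma adjusted p 0.0573 to 0.0728).

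Birc5, the gene of survivin, was not called in either state, at 0.24 ± 0.10 (limma adjusted p = 0.0566) and 0.15 ± 0.10. It was called without GH when control array 3 or null array 3 was left out (0.33 and 0.32, limma adjusted p 0.0305 and 0.0468). Cdca8, the gene of borealin, was called at 0.29 ± 0.11 without GH (limma adjusted p = 0.0384) and not at 0.05 ± 0.11 with GH. Its call was lost without either null array, or without control array 2, each without GH (limma adjusted p 0.058 to 0.192). The 3 genes had a median of 0.24 without GH, below the median of 0.59 over the kinases with TPX2.

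All 5 spindle checkpoint genes were called in both GH states, 4 higher and 1 lower. Bub1b, which encodes BUBR1, a subunit of the complex that holds back CDC20, measured 9.17 and 9.08 in control and 10.47 and 10.63 in null cells without GH, and 9.07 and 8.99 against 10.06 and 10.10 with GH. Its differences were 1.42 ± 0.09 (2.68-fold; limma adjusted p = 7.91e-08) and 1.05 ± 0.09 (2.07-fold; limma adjusted p = 1.27e-06), and no array of one genotype reached the other. Bub3, the partner that carries BUB1 and BUBR1 to kinetochores, went the other way. It measured 12.40 and 12.46 against 11.75 and 11.74 without GH, and 12.39 and 12.39 against 11.72 and 11.88 with GH. The null arrays were lower in both states, by -0.69 ± 0.09 (limma adjusted p = 3.51e-05) and -0.59 ± 0.09 (limma adjusted p = 0.000132), and a second probe set of Bub3 also gave a called decrease without GH (-0.82). Bub3 has 5 probe sets, and the remaining ones were not called without GH.

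Ttk, the kinase MPS1 that starts checkpoint signalling, was 2.12-fold higher without GH (1.08 ± 0.10; limma adjusted p = 1.74e-06) and higher by 0.97 ± 0.10 with GH. Bub1, the checkpoint kinase at kinetochores, was higher by 0.80 ± 0.09 and 0.54 ± 0.09. Mad2l1, whose product MAD2 binds CDC20, was higher by 0.62 ± 0.09 and 0.47 ± 0.09. By their brightest probe sets, the binding partners Bub1b and Bub3 thus moved in opposite directions, each with non-overlapping groups.

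**Figure D3:**
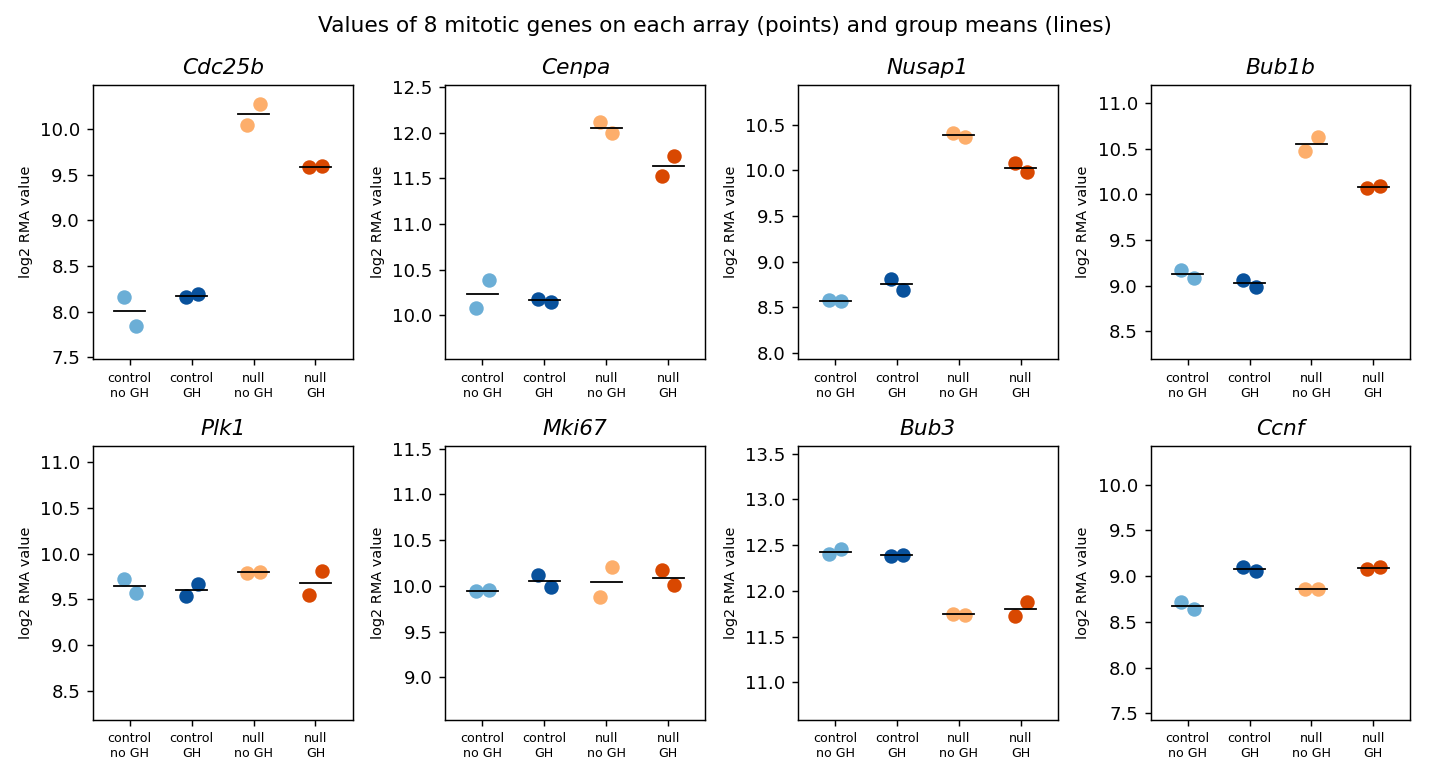
Each panel gives the log2 value of 1 gene on the 8 arrays (points, 2 per group) with the group means (lines), on axes of equal span. Cdc25b, Cenpa, Nusap1 and Bub1b lie higher on the null arrays, Plk1 and Mki67 show no called difference between the genotypes, Bub3 lies lower on the null arrays, and Ccnf lies higher on the arrays with GH.

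Of 5 centromere and kinetochore genes, 4 were called higher without GH and 3 with GH. Cenpa, the histone H3 variant that marks the centromere, measured 10.08 and 10.39 in control and 12.11 and 11.998 in null cells without GH, and 10.18 and 10.15 against 11.52 and 11.75 with GH. The genotypes did not overlap, with differences of 1.82 ± 0.12 (3.53-fold; limma adjusted p = 7.32e-08) and 1.47 ± 0.12 (2.77-fold; limma adjusted p = 5.29e-07). The second brightest probe set of Cenpa was not called in either state, so this increase rests on the brightest one.

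Cenpe, a kinetochore motor, was higher by 0.85 ± 0.10 without and 0.82 ± 0.10 with GH, both called. Ndc80 and Nuf2 encode the paired subunits of the complex that grips microtubules. Ndc80 was called higher in both states, at 0.79 ± 0.10 and 0.41 ± 0.10. Nuf2 measured 8.22 and 8.32 in control and 8.72 and 8.66 in null cells without GH, where it was higher by 0.42 ± 0.09 (limma adjusted p = 0.0015). With GH it measured 8.46 and 8.38 against 8.43 and 8.41, so the groups overlapped and the difference was -0.001 ± 0.09. Cenpf, a large kinetochore and nuclear matrix protein, was not called at 0.06 ± 0.09 and -0.11 ± 0.09.

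Among 6 spindle motors and microtubule binders, 4 were called higher without GH and 3 with GH. Nusap1, which bundles microtubules near chromosomes, measured 8.58 and 8.57 in control and 10.40 and 10.37 in null cells without GH, and 8.81 and 8.69 against 10.08 and 9.98 with GH. It was 3.52-fold higher (1.81 ± 0.09; limma adjusted p = 6.53e-09) and 2.43-fold higher (1.28 ± 0.09; limma adjusted p = 1.48e-07), with no overlap. With GH, the second brightest probe set of Nusap1 gave 0.32 and was not called (limma adjusted p = 0.0732). Kif11, the motor that pushes the spindle poles apart, was higher by 0.74 ± 0.10 and 0.67 ± 0.10. Kif4, a chromosome-bound motor, was higher by 0.70 ± 0.12 and 0.33 ± 0.12. The call of Kif4 with GH was lost without control array 3 or either null array with GH (limma adjusted p 0.0706 to 0.209). Kif2c, the depolymerase MCAK, was called at 0.46 ± 0.10 without GH only. Hmmr, a spindle pole protein, and Ckap2, a microtubule-associated protein, were not called in either state, with 0.09 ± 0.10 and 0.21 ± 0.08 without GH.

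Genes of the midzone and of cytokinesis had a median log2 difference of 1.10 without and 0.88 with GH, and 5 of 6 were called higher in each state. Ect2, which activates RhoA at the cleavage site, measured 7.92 and 8.11 in control and 9.30 and 9.57 in null cells without GH, and 7.91 and 7.73 against 9.49 and 8.99 with GH. The genotypes did not overlap, by 1.42 ± 0.15 in both states (2.68-fold, limma adjusted p = 6.75e-06, and 2.68-fold, limma adjusted p = 7.48e-06). Racgap1 and Kif23 encode the 2 subunits of centralspindlin, which binds ECT2. Racgap1 measured 9.51 and 9.51 against 10.84 and 10.87 without GH, and 9.41 and 9.52 against 10.46 and 10.59 with GH. It was higher by 1.35 ± 0.09 (2.55-fold; limma adjusted p = 1.04e-07) and 1.06 ± 0.09 (2.08-fold; limma adjusted p = 9.57e-07).

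Kif23 measured 9.17 and 8.98 against 10.20 and 10.37 without GH, and 9.02 and 9.19 against 10.12 and 10.23 with GH, and was higher by 1.21 ± 0.11 (2.32-fold) and 1.07 ± 0.11 (2.10-fold), both called. The 2 centralspindlin genes and their partner Ect2 were thus all more than 2-fold higher in both states. Kif20a, a midzone motor, was higher by 0.99 ± 0.09 and 0.70 ± 0.09, and Anln, an actin-binding scaffold of the contractile ring, by 0.68 ± 0.10 and 0.59 ± 0.10. Prc1, which crosslinks midzone microtubules, measured 10.14 and 10.08 against 10.21 and 10.39 without GH and was not called (0.19 ± 0.09, limma adjusted p = 0.113; 0.00 ± 0.09 with GH).

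All 5 genes of anaphase promotion were called higher without GH and 4 with GH. Ube2c, the ubiquitin-conjugating enzyme that serves the anaphase-promoting complex, measured 11.08 and 11.30 in control and 12.36 and 12.27 in null cells without GH, and 11.14 and 11.13 against 11.90 and 12.12 with GH. It was higher by 1.13 ± 0.11 (2.19-fold; limma adjusted p = 2.26e-06) and 0.87 ± 0.11 (limma adjusted p = 2.25e-05). Pttg1, the gene of securin, which holds separase inactive, measured 11.39 and 11.56 against 12.62 and 12.47 without GH, and 11.51 and 11.32 against 12.47 and 12.43 with GH. Its differences were 1.07 ± 0.10 (2.10-fold; limma adjusted p = 2.5e-06) and 1.03 ± 0.10 (2.05-fold), and no array overlapped.

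Espl1, the gene of separase, was higher by 0.77 ± 0.10 and 0.63 ± 0.10. Cdc20, the activator of the complex that the checkpoint restrains, was higher by 0.34 ± 0.09 without GH (limma adjusted p = 0.00976) and not called with GH (0.06 ± 0.09). Cdca3, an adaptor in the degradation of the mitotic inhibitor WEE1, was higher by 0.81 ± 0.10 and 0.39 ± 0.10, and the call with GH was lost without array 3 of either genotype (limma adjusted p 0.0601 and 0.0624). Its second brightest probe set, near the first quartile, gave -0.08 without GH and a called -0.27 with GH, so the 2 brightest of the 3 probe sets of Cdca3 disagree. The average of its probe sets gave -0.04 with GH and was not called (limma adjusted p = 0.68).

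The last 3 genes mark or regulate proliferation. Top2a, the topoisomerase that untangles sister chromatids, measured 10.20 and 10.11 in control and 10.89 and 11.19 in null cells without GH, and was higher by 0.89 ± 0.11 (limma adjusted p = 2.16e-05) and 0.68 ± 0.11 with GH. Mki67, whose product Ki-67 coats mitotic chromosomes and serves as a marker of cycling cells, measured 9.94 and 9.95 in control and 9.88 and 10.21 in null cells without GH, and 10.12 and 9.99 against 10.17 and 10.01 with GH. The groups overlapped in both states, and the difference of 0.10 ± 0.12 without GH was not called (limma adjusted p = 0.546), with a 95% interval from -0.16 to 0.35. Foxm1, a transcription factor of late cell cycle genes, measured 8.95 and 8.78 against 9.09 and 9.16 without GH, and 9.00 and 8.82 against 9.20 and 9.21 with GH. It was higher by 0.26 ± 0.10 (limma adjusted p = 0.0419) and 0.30 ± 0.10 (limma adjusted p = 0.0252). The call without GH was lost without any 1 of 5 arrays, namely control array 3 and each null array (limma adjusted p 0.0592 to 0.238), and the call with GH without control array 3 or either null array with GH (limma adjusted p 0.0886 to 0.226).

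**Figure D4:**
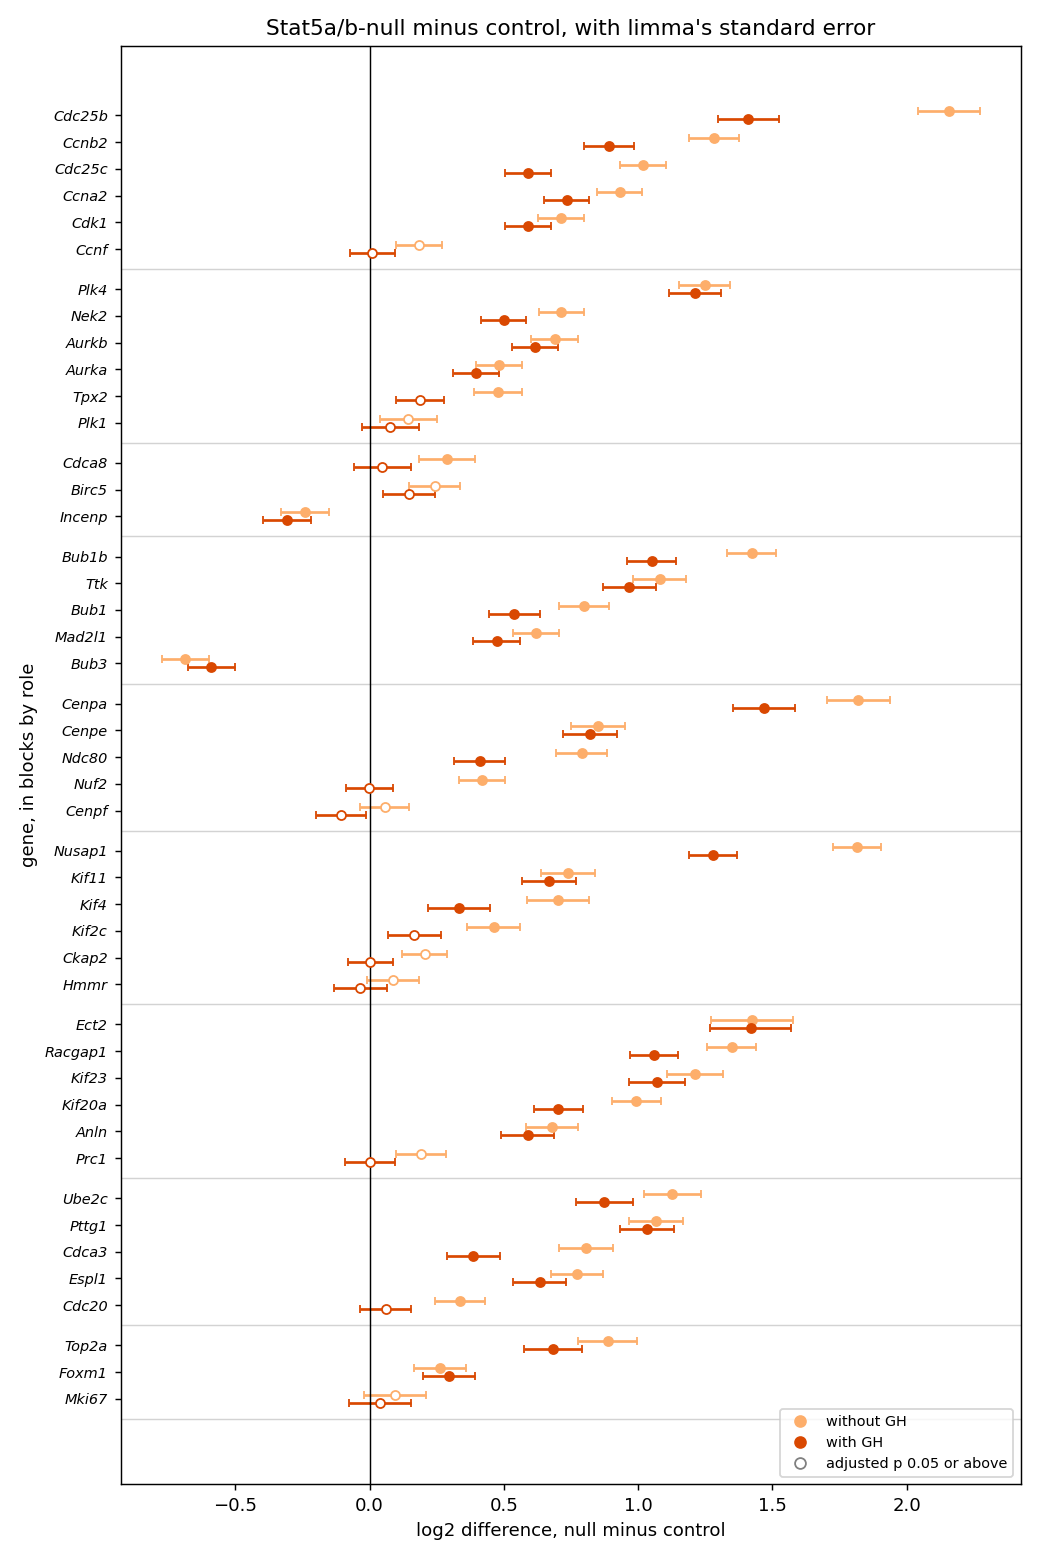
The points give the log2 difference, null minus control, for each gene without GH (pale) and with GH (dark), with limma's standard error and in blocks by role. Open points were not called at an adjusted p of 0.05. Cdc25b, Cenpa and Nusap1 lie farthest to the right without GH, at 2.16, 1.82 and 1.81, and Bub3 lies farthest to the left at -0.69.

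Other probe sets of the same genes are dimmer by the rule that took the brightest, and a smaller share of them was called. Without GH, 22 of the 59 other probe sets were called higher and 1 lower in null cells. Of the 51 that belong to genes called by their brightest probe set, 21 were called in the same direction, and the 1 opposite call was that of Incenp. With only the second brightest probe set, available for 30 genes, 16 were called higher and 1 lower without GH. Among genes called by the brightest probe set only, the second of Aurka and of Ttk was below that first quartile. Those of Cenpa, Cenpe, Cdca3 and Top2a had means of 6.17 to 7.63 over all arrays. Those of Cdc20 and Cdca8, with means of 10.8 and 9.71, gave differences of 0.18 and 0.23 and were not called.

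In control cells few of these genes were called for a response to GH. Of the 45, 1 was called higher and 0 lower (limma), against 1.72% and 0.896% of all genes, and at an unadjusted p below 0.05 there were 1 higher and 1 lower, against 925 and 943 of the 18193 genes. The median log2 difference was -0.05, against -0.02 over all genes. The 1 gene was Ccnf, given above by array: both control arrays with GH (9.10 and 9.06) lay above both without (8.72 and 8.64). Its difference was 0.40 ± 0.08 (1.32-fold; limma adjusted p = 0.0233), and it was not called without any 1 of the 4 control arrays (0.36 to 0.44, limma adjusted p 0.0544 to 0.225). In null cells Ccnf was 0.23 ± 0.08 higher with GH and not called (limma adjusted p = 0.11), and the interaction was not called.

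In null cells with GH, 15 of the 45 genes were called lower and 0 higher by the same test, against 6.35% and 5.36% of all genes. At an unadjusted p below 0.05, 25 were lower and 1 higher, against 3113 and 1738 of the 18193 genes. The median log2 difference was -0.22, against -0.07 over all genes, and 41 of the 45 were below 0, as were 12110 of all genes. The 15 were Ccna2, Ccnb2, Cdc25b and Cdc25c of the CDK1 group, Nek2, Tpx2, Cdca8, Bub1b, Cenpa, Ndc80, Nusap1, Kif20a, Racgap1, Cdc20 and Cdca3. Cdc25b fell by 0.57 (SE 0.11; limma adjusted p = 0.00705), Bub1b by -0.47 ± 0.09 (limma adjusted p = 0.00643) and Cdc25c by -0.44 ± 0.09 (limma adjusted p = 0.00659), each with both arrays with GH below both without. The other 12 lay between -0.42 and -0.29.

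The count of 15 rests on all 4 null arrays together. It was 5 without the null array without GH numbered 2, 2 without its replicate 3, 1 without the null array with GH numbered 2, and 4 without that numbered 3. No change in null cells reached 1.5-fold in a test against that size (limma treat, 0 of 45). This comparison shares the null arrays without GH with the genotype comparison given first, so the 2 are no independent evidence of each other.

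The difference between the GH responses of the 2 genotypes, the interaction, was called for 2 of the 45 genes, both negative, against 2.33% of all genes called negative and 2.83% called positive. At an unadjusted p below 0.05 there were 12 negative and 0 positive, against 1816 and 1346 of the 18193 genes. Below 0 were 43 of the 45 and 11001 of all genes, with medians of -0.19 and -0.05. For Cdc25b the response was 0.17 in control and -0.57 in null cells (interaction -0.75 ± 0.16; limma adjusted p = 0.0198). For Nusap1 it was 0.18 and -0.36 (interaction -0.53 ± 0.13; limma adjusted p = 0.0297). The second brightest probe set of Nusap1 gave an interaction of -0.19 and the average of its probe sets -0.36. Neither was called (limma adjusted p = 0.696 and 0.15). Without 1 array the count was 1 or 0: Nusap1 was not called without any 1 of the 8 (limma adjusted p 0.0549 to 0.141). Cdc25b was not called without either null array with GH, or without array 3 of any of the other groups (limma adjusted p 0.0504 to 0.099). Cdc25c and Nuf2 came next, at -0.43 (limma adjusted p = 0.0696) and -0.42 (limma adjusted p = 0.08), and were not called.

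**Figure D5:**
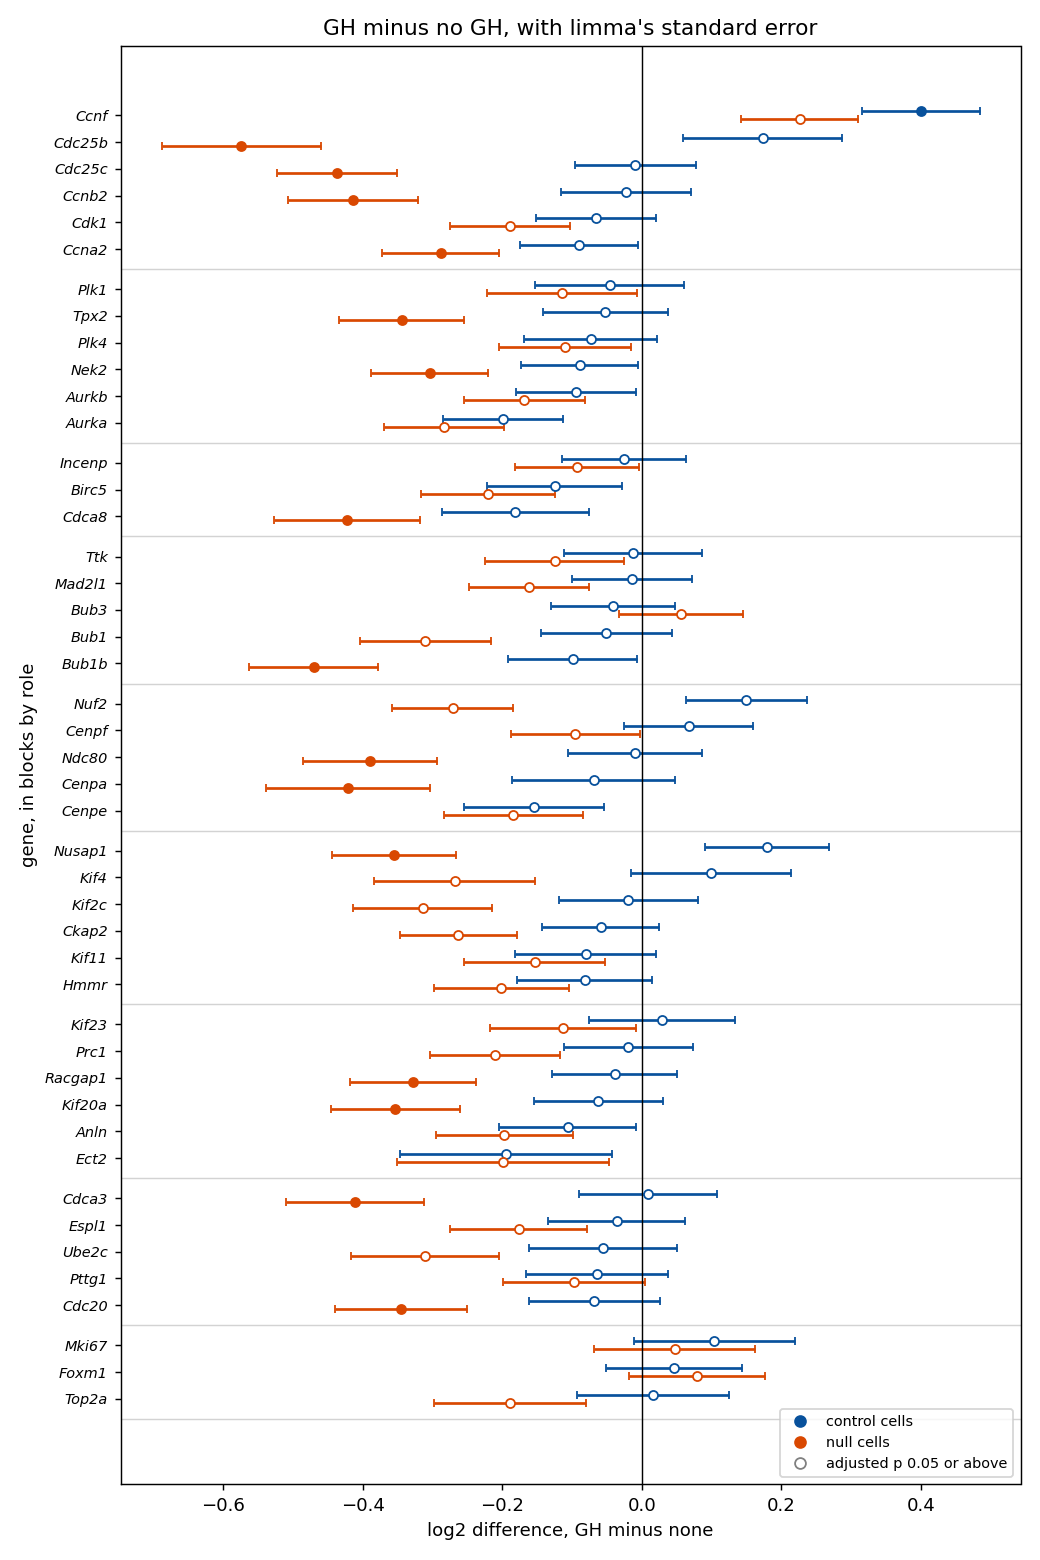
The points give the log2 difference, GH minus none, for each gene in control cells (blue) and in null cells (orange), with limma's standard error and in blocks by role. Open points were not called. Ccnf is the only filled point of control cells, at 0.40, and the filled points of null cells lie between -0.57 and -0.29.

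Genes that work with these were counted from lists chosen by function, and their counts stand beside the 24.8% higher and 22.7% lower of all genes without GH, and 22.2% and 23.1% with GH. Of 20 cohesin and condensin genes, 15 were called higher and 2 lower in null cells without GH, with a median of 0.75, and with GH 15 and 1. The condensin genes Ncapd2 (1.55 ± 0.10; limma adjusted p = 5.38e-08) and Smc4 (1.35 ± 0.09; limma adjusted p = 1.25e-07) and Sgo1, the protector of centromeric cohesin (1.15 ± 0.09), had the lowest p without GH. Of 32 other kinetochore genes, 21 were higher and 3 lower without GH (median 0.48), and 18 and 4 with GH. Without GH, Spc24, a partner of NDC80 and NUF2, had the lowest p (1.23 ± 0.09; limma adjusted p = 2.43e-07). Cenpp, of the inner kinetochore, had the largest difference without GH (1.59 ± 0.13; 3.01-fold; limma adjusted p = 8.23e-07). Oip5, a factor that loads CENPA onto centromeres, was higher by 1.09 ± 0.09 without GH (limma adjusted p = 4.9e-07), beside the increase of Cenpa itself.

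Of 32 other spindle and cytokinesis genes, 19 were higher and 4 lower without GH (median 0.32), and 12 and 5 with GH. Without GH, Haus4, of the augmin complex that branches microtubules, was higher by 1.19 ± 0.09 and Dlgap5, a spindle protein, by 1.12 ± 0.10. Of 19 kinases and phosphatases of mitotic entry, 9 were higher and 3 lower without GH (median 0.22) and 10 and 2 with GH. Without GH, Pbk was higher by 1.37 ± 0.09 (limma adjusted p = 8.92e-08) and Mastl, which restrains the phosphatase PP2A, by 0.81 ± 0.09. Cdk7, the kinase that activates CDK1, was lower by -0.87 ± 0.10 without GH (limma adjusted p = 8.13e-06). Of 17 genes of the anaphase-promoting complex, 10 were higher and 3 lower without GH, all by less than 2-fold (median 0.28), and 6 and 2 with GH. The lowest p without GH were those of Anapc15 at -0.82 ± 0.10 and Cdc16 at 0.71 ± 0.09.

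The 15 genes of DREAM, MuvB and NF-Y, which act on the promoter elements shown above, had 5 called higher and 2 lower without GH, with a median of 0.08, and 4 and 1 with GH, so their higher calls lay near the share over all genes. Without GH, Rbl2, the gene of the pocket protein p130, was 3.16-fold higher (1.66 ± 0.12; limma adjusted p = 2.12e-07). In the same comparison Nfya, the DNA-binding subunit of NF-Y, was higher by 0.78 ± 0.09 (limma adjusted p = 9.77e-06), and E2f4 by 0.67 ± 0.09 (limma adjusted p = 7.42e-05). In control cells 0 genes of these lists were called for GH by limma, against 1.72% higher and 0.896% lower of all genes. At an unadjusted p below 0.05 no list had more than 3 in 1 direction, against 925 higher and 943 lower of the 18193 genes. In null cells 9 of the 32 other spindle genes were called lower with GH, against 6.35% of all genes. The lowest p was that of Kif18a (-0.62 ± 0.12, limma adjusted p = 0.00699), a motor that shortens kinetochore microtubules. Also called lower were 6 of 32 other kinetochore genes, 4 of 19 of mitotic entry and 1 of 20 of cohesin and condensin. The other lists had 0. Called higher were E2f4 (0.46 ± 0.09, limma adjusted p = 0.00818) and the cohesin regulator Pds5a (0.48 ± 0.09, limma adjusted p = 0.00348). They were 1 of 15 and 1 of 20 in their lists, against 5.36% of all genes called higher. Pds5a and Haus3 had called positive interactions (0.51 and 0.47), and Haus4 and Mastl negative ones (-0.55 and -0.49). No list held more than 1 called interaction in 1 direction, against 2.83% positive and 2.33% negative of all genes.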

How the data were processed

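RNA was measured on 8 Affymetrix arrays for the whole mouse genome. The table holds log2 values as the authors deposited them, and the submitters' processing notes name Partek 6.10.0511 and RMA, which corrects background, equalises the arrays and summarises each probe set. The sources used here do not give the RMA settings, and the values carry no detection call, so dim probe sets cannot be set apart from background. Equalising the arrays makes every difference relative to the other genes. The number of arrays limits the precision. The median residual SD was 0.0971 over genes and 0.0816 over the mitotic genes (log2).

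Of 45037 probe sets that are no controls, 34945 had 1 annotated gene. Symbols were updated through Entrez identifiers with the RefSeq table of GRCm38.p6, and the brightest probe set stood for a gene, which left 18193 genes. Groups and replicate numbers came from the titles. For 1 null array without GH the source label carries 3 and the title 2, and the title was used. limma 3.58.1 (R 4.3.3) fitted 1 mean per group over all 8 arrays (4 residual and 7.82 prior degrees of freedom). Every adjusted p is limma's after Benjamini-Hochberg adjustment over all genes, two-sided, called below 0.05, and errors are limma's standard errors. The fit was tested on simulated data. The members and lists were chosen with earlier results of these data known. All members could be named, and from each related list the 3 genes with the lowest p. Promoter windows came from RefSeq and were searched on both strands. A search of the proteins was not run. The closing section gives the alternatives tried.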

Additional observations from a re-analysis of the deposited data

Results flagged for a closer look

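The GH response of Cdc25b differed between the genotypes by the interaction test, with a log2 value of -0.75 (limma adjusted p = 0.0198). Its log2 difference, GH minus none, was 0.17 in control cells and -0.57 in null cells. The interaction of Nusap1 was -0.53 (limma adjusted p = 0.0297), from a response of 0.18 in control and -0.36 in null cells. Both sizes held between -0.90 and -0.47 when any 1 array was left out, while the calls did not. These sizes are those of the brightest probe sets, and the second brightest of Nusap1 gave an interaction of only -0.19, not called. With 2 arrays per group, no group was large enough for a search for outlying arrays.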

How the results depend on the processing

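Without GH, the 35 genes called higher in null cells became 33 with the replicate block, 33 to 38 under other centring, normalization, variance, filter, probe set averaging and 4-array settings, 15 when a change of at least 1.5-fold was tested and 16 of 30 with the second brightest probe set. The 2 called lower became 1 with the replicate block, median centring, averaged probe sets, the 4 arrays compared alone or the second probe set, and 0 in the 1.5-fold test. With GH, the 30 called higher became 11 in the 1.5-fold test and 12 of 30 with the second probe set, and the 2 called lower became 1 with averaged probe sets and 0 in the 1.5-fold test. For GH in control cells, the 1 called higher became 0 with the 4 arrays alone, in the 1.5-fold test and with the second probe set. For GH in null cells, the 15 called lower became 11 with the replicate block, 11 to 21 under the other settings, 0 in the 1.5-fold test and 3 with the second probe set. The 2 negative interactions stayed 2 with the replicate block and became 4 with dim genes left out and 0 in the 1.5-fold test and with the second probe set. The cause of these shifts was not tested beyond the fewer genes or stricter limit of each setting.

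Leaving out 1 array gave 33 to 35 higher and 1 to 2 lower without GH, 27 to 30 and 1 to 2 with GH, 0 to 1 higher for GH in control cells, 1 to 16 lower for GH in null cells and 0 to 1 negative interactions. Among called differences, directions turned by the choice of probe set only. Incenp gave 0.073 (averaged) and 0.149 (second probe set) without GH and 0.029 and 0.174 with GH. Cdca3 gave -0.079 without GH by the second probe set, and -0.042 (averaged) and -0.267 (second, called) with GH. The second probe set of Aurka gave -0.115 with GH. Same-numbered arrays did not deviate together (correlations over genes of -0.28 to 0.13 between groups), so no shift shared by number was seen. Whether arrays of the same number were paired in the experiment cannot be told from this. No 4-array fit exists for the interaction.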
